A study of Mus musculus with 2 samples.

Results

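Transcripts of 8 genes linked to lipid-handling and complement-producing macrophages were followed through 2 single-cell RNA libraries: C1qa, C1qb, C1qc, Apoe, Trem2, Tyrobp, Gpnmb and Fabp5. Tyrobp, Gpnmb and Fabp5 were highest in other cell classes here. The genes were taken by symbol, 8 of the 27998 in the deposited feature table. The rule itself uses no measured value, but the list was chosen with earlier results of these data known. The libraries hold live CD45-positive cells, the marker of blood-derived cells, sorted from B16F10 tumors, a transplantable mouse melanoma line grown under the skin of C57BL/6 mice. One group was control mice (Usp18f/f), in which the Usp18 gene carries sites for recombination and remains intact. The other was Usp18f/f LysM-Cre mice, in which Cre recombinase is placed in the Lyz2 locus, so that deletion is driven in cells that use that locus, chiefly monocytes, macrophages and neutrophils. Tumors were taken on day 14, and 4 tumors per group were pooled into 1 library, with no replicate and no label for animal age or sex. Every difference below lies between these 2 pools, has no replicate check and carries no p-value. Intervals are 95% counting intervals (exact Poisson for levels, exact binomial for shares) and say nothing of the spread between mice.

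C1q is the recognition part of the classical complement pathway and is assembled from the products of C1qa, C1qb and C1qc, which in the body come mainly from macrophages. TREM2 is a lipid-sensing receptor at the macrophage surface that signals through the adaptor TYROBP (DAP12), and APOE, the protein of lipoprotein particles, is among its ligands. Tumor macrophages with high TREM2, APOE, C1q, GPNMB (a glycoprotein of lysosomes and melanosomes) and FABP5 (a carrier of fatty acids in the cytosol) are often described as lipid-associated macrophages.

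The 3 C1q genes are neighbours on the minus strand of chromosome 4 (GRCm38): C1qb at chr4:136880129-136886187, C1qc at chr4:136889804-136893065 and C1qa at chr4:136895917-136898803. The gaps between them measure 3.62 kb and 2.85 kb, and the whole group spans 18.68 kb. Apoe lies at chr7:19696109-19699188 and Tyrobp at chr7:30413760-30417585, Trem2 at chr17:48346401-48354147, Gpnmb at chr6:49036546-49070929 and Fabp5 at chr3:10012548-10016607; all 8 are protein-coding genes. RefSeq (GRCm38.p6) upstream sequences were at hand for 5 of the 8 members, and those of C1qb, Trem2 and Gpnmb are shown, the first 2 because their levels followed each other closely across cell classes and Gpnmb because its level followed melanoma cells instead. Each is the 250 bases before the start that RefSeq annotates, 5′ to 3′ on the gene's strand, and lies outside the GENCODE positions given above. Capitals mark matches, on either strand, to GAGGAA (the core bound by PU.1-type ETS factors), TGCTGA (a Maf half-site), TGANTCA (AP-1) or CACGTG (the E-box of MITF and TFEB).
C1qb, chr4:136886201-136886450, minus strand: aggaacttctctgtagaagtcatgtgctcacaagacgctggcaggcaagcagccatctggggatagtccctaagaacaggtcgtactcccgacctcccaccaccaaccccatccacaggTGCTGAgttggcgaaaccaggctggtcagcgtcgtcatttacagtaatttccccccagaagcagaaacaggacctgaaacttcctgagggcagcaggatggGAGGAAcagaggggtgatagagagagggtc
Trem2, chr17:48346151-48346400, plus strand: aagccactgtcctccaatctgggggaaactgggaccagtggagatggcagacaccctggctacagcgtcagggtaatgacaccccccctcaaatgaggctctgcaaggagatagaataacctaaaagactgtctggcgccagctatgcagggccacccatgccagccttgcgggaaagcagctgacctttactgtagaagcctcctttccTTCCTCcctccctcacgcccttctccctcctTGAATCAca
Gpnmb, chr6:49036268-49036517, plus strand: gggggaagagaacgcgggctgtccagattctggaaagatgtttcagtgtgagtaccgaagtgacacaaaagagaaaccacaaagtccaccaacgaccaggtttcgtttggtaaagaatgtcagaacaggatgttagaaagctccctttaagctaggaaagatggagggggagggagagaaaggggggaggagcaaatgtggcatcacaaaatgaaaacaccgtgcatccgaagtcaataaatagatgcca

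The C1qb window held a Maf half-site from 131 to 126 bases and an ETS core from 30 to 25 bases before the start. In the Trem2 window an ETS core on the opposite strand lay 40 to 35 bases and an AP-1 match 9 to 3 bases before the start, and no matches overlapped one another. None of these letters occurred in the Gpnmb window. Among 32851 upstream windows of the same length, GAGGAA was found in 23.3%, TGCTGA in 16.1%, TGANTCA in 6.75% and CACGTG in 6.02%, so such matches are common and are given as a description of the letters only.

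The control library held 7754 barcodes with 43412346 UMIs (unique molecular identifiers, 1 per captured transcript), and the library labelled knockout held 6063 barcodes with 48167632. After filtering, 6657 and 5451 cells were kept and fell into 28 clusters, of which 26 could be named from marker genes that include no member. The libraries shared 8 barcode sequences. Where 2 values stand together below, the control library comes first. In macrophage- and monocyte-like cells Usp18, the targeted gene, stood at 18.07 CPM (UMIs per 1000000 UMIs of the class) for control. It stood at 95.7 CPM in the library labelled knockout. Counts from 3′ ends do not show which exons a transcript holds, so deletion was not tested. Lyz2, the locus that carries Cre, stood at 9053 and 17.39 CPM. The sex of the pooled cells also differed. Of cells with UMIs of only Xist or only Y-linked genes, 36.43% had Xist for control and 86.07% in the library labelled knockout.

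C1q transcripts were concentrated in macrophage-like cells and, at a lower level, in monocyte-like cells. C1qb stood at 3409 CPM (3363 to 3455) in the 590 macrophage-like cells of the control library and at 3959 CPM (3921 to 3997) in the 963 of the library labelled knockout. In monocyte-like cells it stood at 747.8 and 949.4 CPM, which is 21.94% and 23.98% of the macrophage level. That pooled level was uneven between monocyte-like clusters. C1qb stood at 1380 and 1475 CPM in cluster 2 and at 1240 and 978.5 CPM in cluster 7. It stood at 39.83 and 79.75 CPM in cluster 3 and at 13.83 and 68.22 CPM in cluster 18. The names of clusters 2 and 7 are close calls, as described below. C1qa measured 2992 and 3487 CPM in macrophage-like cells and 428.9 and 614.8 CPM in monocyte-like cells, and C1qc 2196 and 2430 CPM against 320.5 and 439.1 CPM. The order of the first 2 classes was the same for all 3 chains in both libraries, with intervals that did not overlap. Macrophage-like cells, 8.863% and 17.67% of the kept cells, held 83.23% and 82.09% of all C1qa UMIs, 76.68% and 77.23% of C1qb and 83.11% and 81.66% of C1qc. Below monocytes the classes could not be ordered firmly. In the control library the next value was 35.24 CPM of C1qa in migratory dendritic-cell-like cells. In the library labelled knockout, C1qb at 197.2 CPM in neutrophil-like cells rests on 13 UMIs in 33 cells, and the top 1% of these cells held 92.31% of them.

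**Figure D1:**
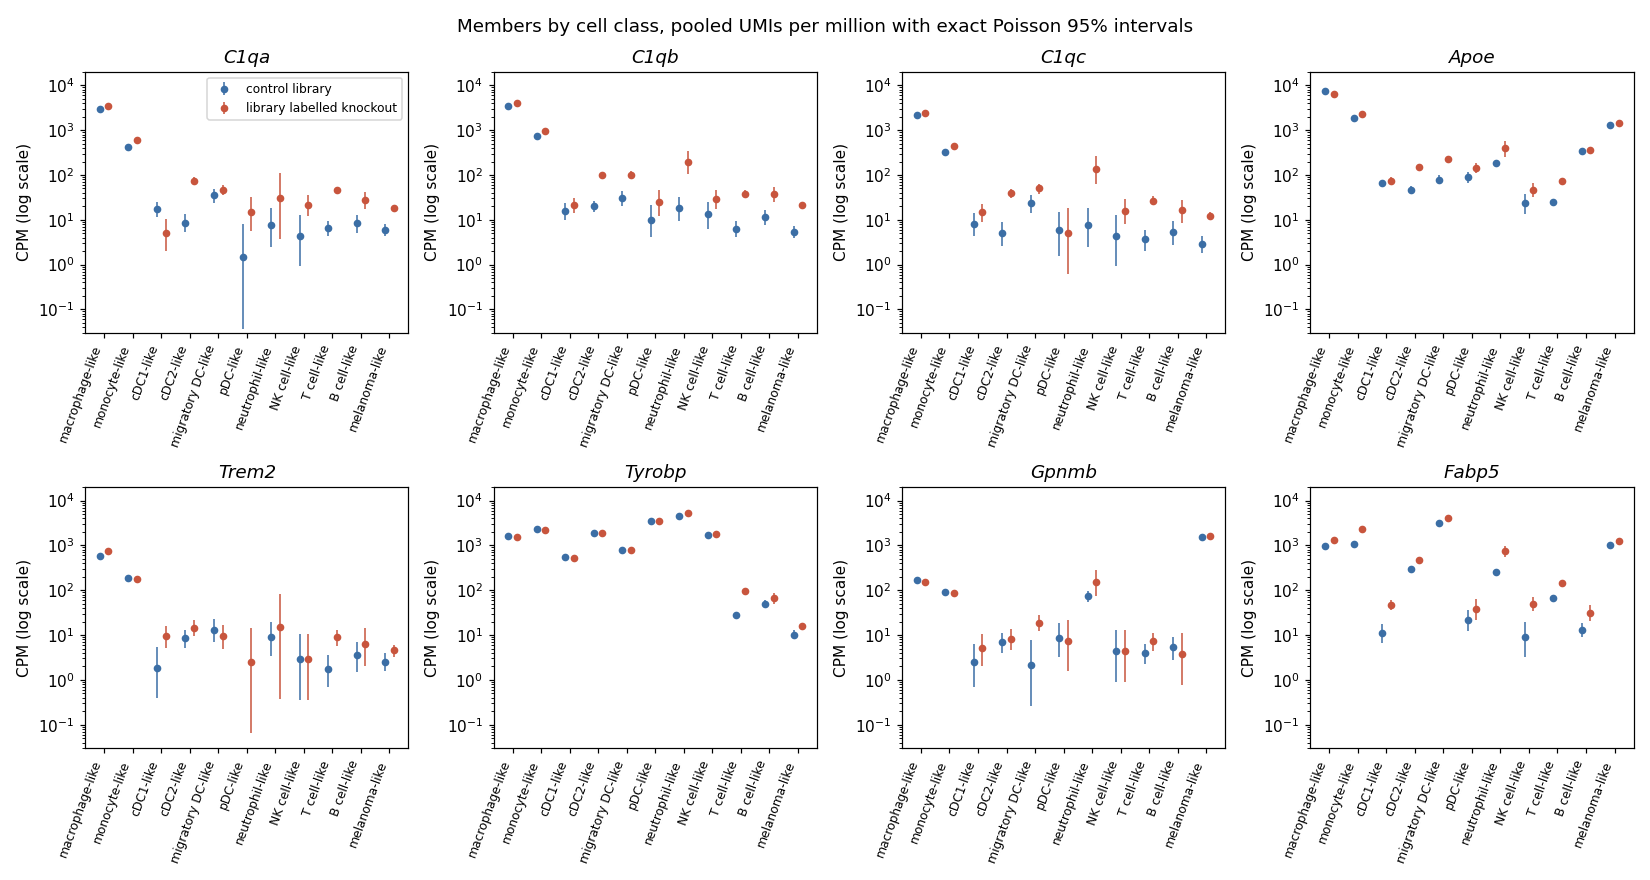
CPM of each member (log scale) in 11 cell classes, as pooled UMIs of the control library (blue) and of the library labelled knockout (red) with exact Poisson 95% intervals; a class without UMIs has no point. The C1q chains and Trem2 are highest in macrophage-like cells, Tyrobp in neutrophil-like cells (4444 and 5158 CPM), Gpnmb in melanoma-like cells (1578 and 1664 CPM) and Fabp5 in migratory dendritic-cell-like cells (3152 and 4022 CPM).

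B, T and NK cells, which are not known as sources of C1q, were used to read the level of C1q outside its source cells, to which free RNA in droplets contributes. Over these lymphocytes C1qa was 0.233% of its macrophage level for control and 1.099% in the library labelled knockout. C1qb was at 0.2546% and 0.9223%, and C1qc at 0.1944% and 0.9521%. The library labelled knockout thus carried more C1q in lymphocytes, 38.32 CPM of C1qa against 6.972 CPM. In its T-cell-like cells the top 1% of cells held 72.73% of the C1qa UMIs, so most of it sat in a few barcodes. Cluster 21, 102 T-cell-like cells of that library, held 95 C1qa UMIs (92.34 CPM), and T-cell-like clusters 8, 9, 12 and 15 stood at 14.36 to 20.74 CPM, so 38.32 CPM is above an even background there. The 3 chains kept the macrophage proportions there within counting error in the control library: C1qb made up 43.57% (35.22 to 52.2) of lymphocyte C1q UMIs and 39.65% (39.24 to 40.07) of those of macrophages. With every cell thinned to 1000 UMIs, all 3 chains were seen together in 69.4% and 72.11% of macrophage-like cells and in 7.692% and 10.39% of monocyte-like cells. No B-, T- or NK-cell-like cell had all 3. The 0 of 1387 B-cell-like cells of the control library allow a share of up to 0.2163%, and the 0 of 193 NK-cell-like cells of the library labelled knockout, the fewest, up to 1.554%.

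The balance of the 3 chains differed between the classes, and it was close in the 2 libraries. A 3′ UMI assay counts each molecule once whatever its length, so chains can be set side by side, though their capture may differ. Of the C1q UMIs in macrophage-like cells, C1qb took 39.65% and 40.09%, C1qa 34.81% and 35.31%, and C1qc 25.54% and 24.6%. In monocyte-like cells C1qb took more, 49.94% (49.07 to 50.82) and 47.39% (46.75 to 48.03), and C1qa less, 28.65% and 30.69%. The same held by cluster. In cluster 1, the largest macrophage-like cluster, C1qb made up 39% and 39.99%, and in cluster 4, monocyte-like cells led by Ppbp, Thbs1 and Arg1, it made up 53.94% and 54.45%. Cluster 18, monocyte-like cells led by Ace and Treml4, had only 18 C1q UMIs in the control library and places no limit on the balance.

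**Figure D2:**
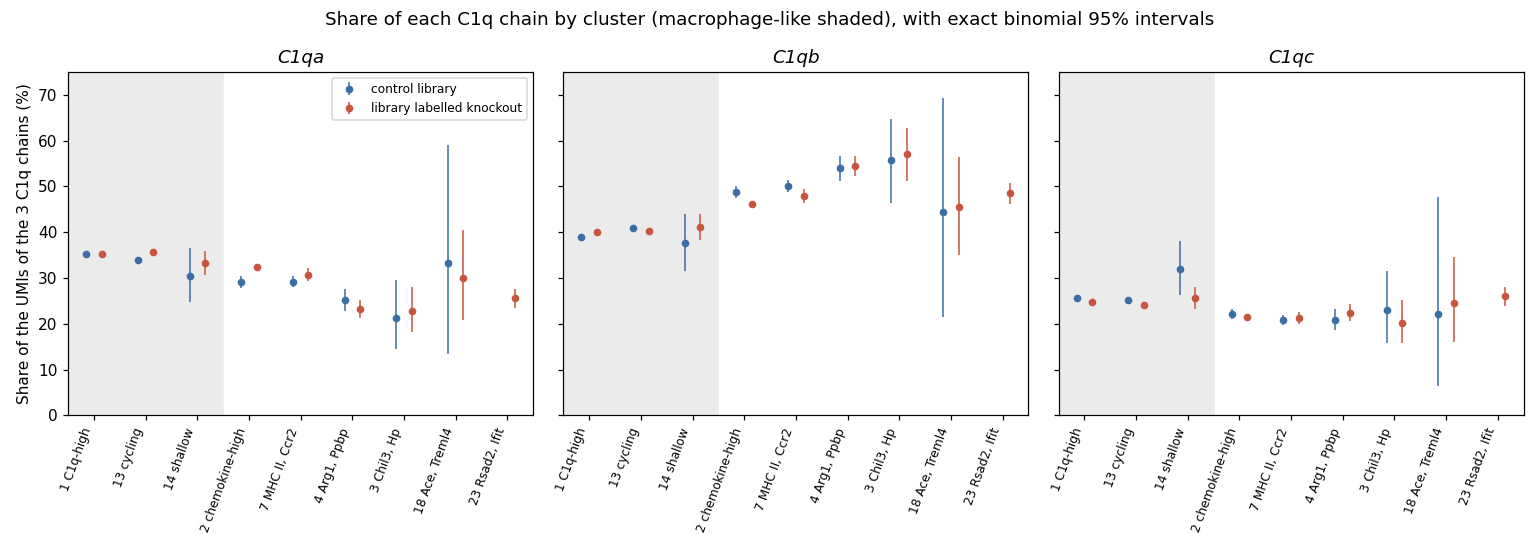
Share (%) of C1qa, C1qb and C1qc among the UMIs of the 3 chains in each cluster of macrophage-like (shaded) and monocyte-like cells, with exact binomial 95% intervals, for the control library (blue) and the library labelled knockout (red). C1qb lies near 40% in macrophage-like clusters and at 46.12% to 57.05% in the monocyte-like clusters 2, 3, 4 and 7.

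Apoe was the most abundant member in macrophage-like cells, and B-cell-like cells carried it too. It measured 7479 CPM (7412 to 7547) there for control and 6442 CPM (6393 to 6491) in the library labelled knockout. Monocyte-like cells followed at 1869 and 2315 CPM and melanoma-like cells at 1305 and 1422 CPM, the same order in both libraries without overlap of intervals. B-cell-like cells had 340 CPM (316.4 to 364.9) and 368.6 CPM (327.8 to 413), against 24.43 and 75.28 CPM in T-cell-like and 23.79 and 46.77 CPM in NK-cell-like cells. At 1000 UMIs per cell, 20.4% (18.31 to 22.62) and 22.27% of B-cell-like cells had an Apoe UMI, and 2.552% and 5.532% of T-cell-like cells did; the unthinned shares were 26.77% and 31.14% for B and 7.327% and 14.21% for T cells. B-cell-like cells were the shallowest of the lymphocytes, with a median of 1494 and 1760 UMIs against 2312 and 2642 in T-cell-like cells. Per C1q UMI, B-cell-like cells carried 13.49 and 4.554 Apoe UMIs and macrophage-like cells 0.8701 and 0.6523, so the 2 genes were not in the macrophage ratio in B cells. T-cell-like cells had 1.471 and 0.6854.

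Across the pooled classes Trem2, the receptor, followed the C1q chains, and Tyrobp, its adaptor, did not. Trem2 stood at 583.1 CPM (564.4 to 602.3) and 754.7 CPM (738.1 to 771.6) in macrophage-like cells and at 184.1 and 178.5 CPM in monocyte-like cells. In every other class it was at or below 15.17 CPM in both libraries. Tyrobp was highest in neutrophil-like cells (4444 and 5158 CPM) and plasmacytoid dendritic-cell-like cells (3536 and 3526 CPM). Monocyte-like cells had 2284 and 2249 CPM of Tyrobp, cDC2-like cells 1884 and 1881, NK-cell-like cells 1734 and 1764, and macrophage-like cells 1605 and 1548. The last 3 stood in this order in both libraries, with overlapping intervals between cDC2-like and NK-cell-like cells. TYROBP also serves other activating receptors, among them those of NK cells. Within macrophage-like cells thinned to 1000 UMIs, Trem2 was seen in 42.24% and 53.78% of cells with a C1q UMI and in 15.15% and 11.11% of the 66 and 72 cells without one. In monocyte-like cells the same shares were 17.1% and 18.27% with C1q and 12.79% and 8.984% without. In the control library, monocyte-like clusters 3 and 7 had 138.8 and 143.1 CPM of Trem2. Their C1qb stood at 39.83 and 1240 CPM, so Trem2 did not follow C1qb between these clusters. In the library labelled knockout they had 69.43 and 110.6 CPM of Trem2, at 79.75 and 978.5 CPM of C1qb.

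Gpnmb was mainly a transcript of the tumor cells that passed the sort. Melanoma-like cells, 153 and 378 in number, held 86.55% and 85.43% of its UMIs. Macrophage-like cells had 166.8 CPM (156.9 to 177.2) and 152.8 CPM (145.4 to 160.5), and monocyte-like cells 92.04 and 86.85 CPM. The 9 melanoma markers, such as Dct and Pmel, summed to 20280 and 20120 CPM in melanoma-like cells and to 49.85 and 49.97 CPM in macrophage-like cells, with none of the 9 at 0 there. At the ratio of Gpnmb to these markers in melanoma-like cells, that much melanoma RNA would bring 3.878 and 4.132 CPM of Gpnmb. In T-cell-like cells the same ratio gives 3.211 and 5.574 CPM, beside 3.908 and 7.186 CPM measured. In neutrophil-like cells it gives 5.849 and 10.04 CPM, beside 73.66 and 151.7 CPM measured. These rest on 48 and 10 Gpnmb UMIs, and in the control library the top 1% of neutrophil-like cells held 60.42% of them. Among monocyte-like clusters Gpnmb was uneven: 316.8 and 271.1 CPM in cluster 4 and 7.028 and 6.099 CPM in cluster 3, which Hp and Chil3 led. When the cells were divided more finely (Leiden resolution 2), a group of 35 and 73 macrophage-like cells led by Mmp12, Gdf15, Pmp22 and Fabp4 had 853.8 and 367 CPM of Gpnmb. The same group had 2285 and 2679 CPM of Fabp5.

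Fabp5 was highest in migratory dendritic-cell-like cells, which Ccr7 and Fscn1 mark, at 3152 CPM (3037 to 3269) and 4022 CPM (3912 to 4134). In the control library monocyte-like (1083 CPM), melanoma-like (1026 CPM) and macrophage-like cells (984.3 CPM) stood close together, and only the intervals of melanoma-like (1004 to 1049) and macrophage-like cells (959.9 to 1009) overlapped. In the library labelled knockout they were apart, with 2361 CPM in monocyte-like, 1351 CPM in macrophage-like and 1259 CPM in melanoma-like cells. Only 11.3 and 46.21 CPM were found in cDC1-like cells, beside 305.3 and 485.1 CPM in cDC2-like cells. Lymphocytes had 44.25 and 109.8 CPM of Fabp5, most of it in T-cell-like cells (67.17 and 145.4 CPM).

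Across the 11 classes of both libraries (22 points of log2(CPM + 5)), the genes nearest to each member among 9685 candidates were ranked by Pearson's r. The points share libraries and ambient RNA, so r is a description. C1qb and C1qc were nearest to each other (0.991), and C1qa was nearest to C1qb (0.969), C1qc (0.965) and Trem2 (0.962). Ms4a7, a membrane protein gene that was also used to name macrophages, followed for C1qb (0.978) and C1qc (0.984), and Stab1, a scavenger receptor, for C1qc (0.971). Trem2 was nearest to Gdf3 (0.969), Kcnk13 (0.969) and Stab1 (0.967). Tyrobp was nearest to Fcer1g (0.945), the other common adaptor of activating receptors, and then to Fes (0.907) and Mef2a (0.906). Gpnmb was nearest to Mitf (0.96), the melanocyte transcription factor, then to Atp6v1e1 (0.948), a subunit of the proton pump of lysosomes, and Wsb2 (0.94). For Apoe (Cltc 0.906, Lonrf3 0.872, Adam9 0.862) and Fabp5 (Dstn 0.929, Spred1 0.911, Rap2b 0.9) the nearest genes were less close.

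In macrophage-like cells the libraries differed little in all 8 members. C1qa was 1.165-fold (1.145 to 1.186), C1qb 1.161-fold and C1qc 1.106-fold higher in the library labelled knockout. Trem2 was 1.294-fold (1.244 to 1.346) and Fabp5 1.372-fold (1.332 to 1.414) higher there. Apoe was 1.161-fold (1.147 to 1.175) higher in the control library, and Gpnmb and Tyrobp 1.092-fold and 1.037-fold. No member reached a 2-fold difference on the log2(CPM + 5) scale, where 0.491% of 11009 genes with at least 20 UMIs were at least 2-fold higher and 0.145% at least 2-fold lower in the library labelled knockout. The median log2 ratio over the 8 members was 0.18, beside -0.03 over all genes tested. The summed macrophage markers were alike, 7294 and 7086 CPM, and T-cell markers stood at 61.75 and 100.4 CPM; their part in these differences was not tested.

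The 3 macrophage-like clusters went the same way for C1qa, C1qb, C1qc, Trem2 and Fabp5, all higher in the library labelled knockout, and for Gpnmb and Tyrobp, both lower. In cluster 14 the counting intervals for C1qc, Fabp5 and Tyrobp include equality. In cluster 1 (350 and 482 cells), Trem2 stood at 685.8 and 836.8 CPM, C1qb at 3726 and 4233 CPM and Apoe at 9584 and 7412 CPM. Cluster 13, the cycling cells (177 and 192), had less of each member than cluster 1 in both libraries. Its Trem2 stood at 447.4 and 606.7 CPM and its Apoe at 4604 and 4597 CPM. For the C1q chains in both libraries, and for Trem2 and Gpnmb in the control library, this order depended on the clustering. At Leiden resolution 2 a cycling group led by Hist1h1b and Cenpe (110 and 150 cells) had 3667 and 3850 CPM of C1qa. The macrophage-like group led by Gas6 had 3886 and 4028 CPM, and that led by Ms4a7 3048 and 3560 CPM. C1qb stood at 4154 and 4330 CPM in the cycling group, 4078 and 4422 in the Gas6 group and 3592 and 4296 in the Ms4a7 group. C1qc was 2704 and 2606 CPM in the cycling group and 2047 and 2454 in the Ms4a7 group. Trem2 was 655.6 and 747.9 CPM against 574.1 and 801.4, and Gpnmb 134.4 and 91.09 against 120.6 and 117.1. Cluster 14 was shallow, with a median of 806 UMIs and 63 and 289 cells, and its Apoe was higher in the library labelled knockout (1911 and 3755 CPM). The share of macrophage-like cells with a Trem2 UMI depended on how depth was treated: it was 38.98% and 49.74% at 1000 UMIs, with 41 and 203 cells left out, but 82.37% and 70.72% without thinning.

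**Figure D3:**
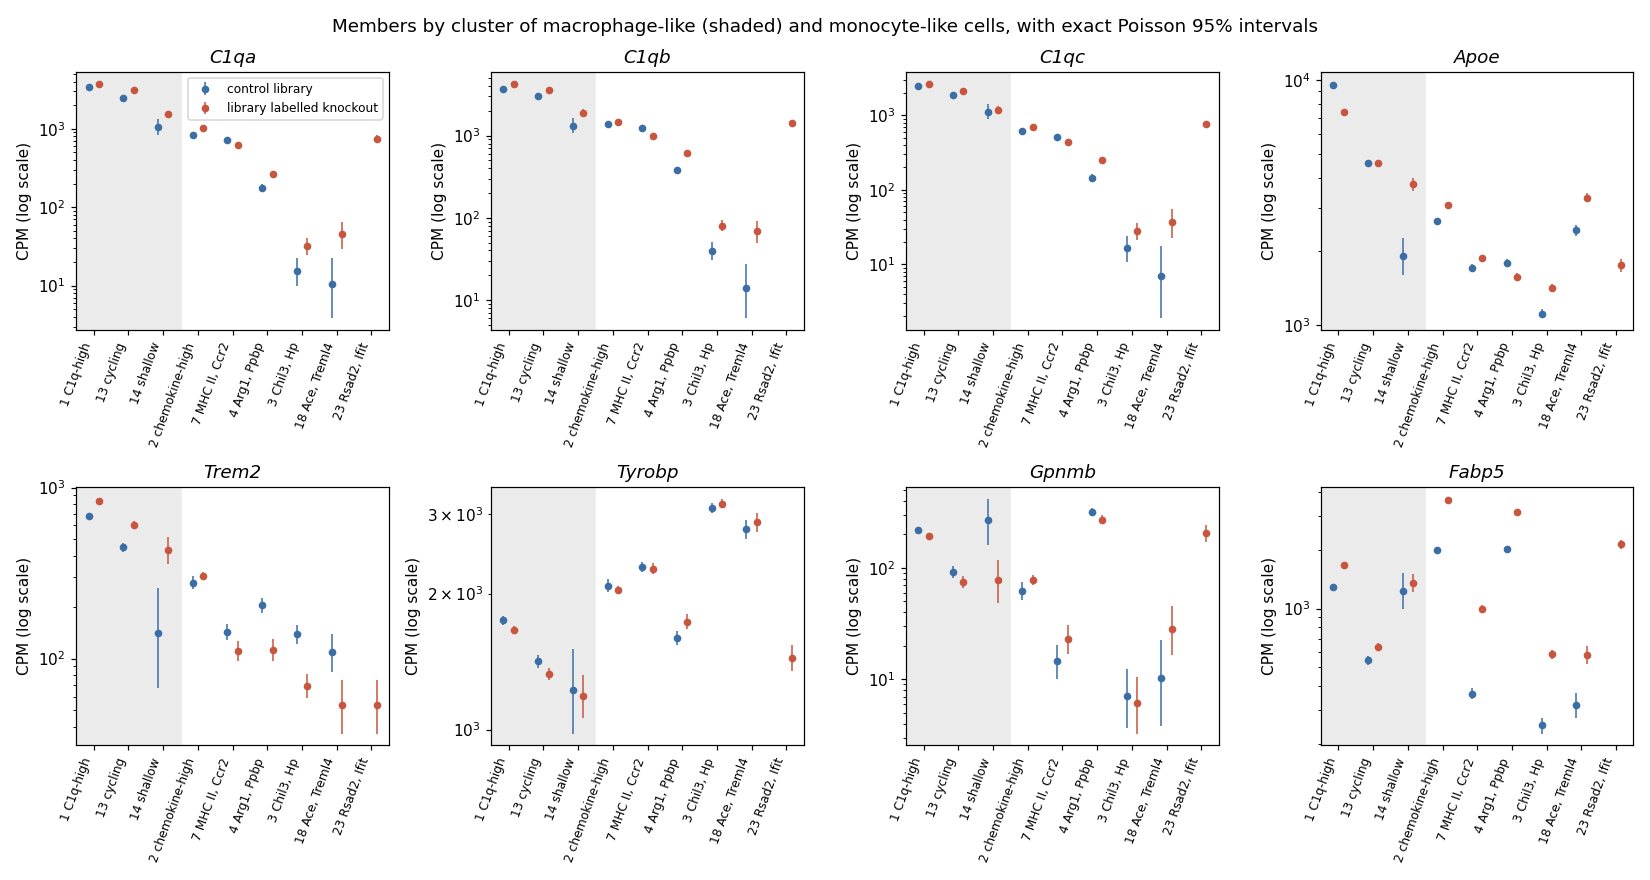
CPM of each member (log scale) in the clusters of macrophage-like (shaded) and monocyte-like cells with exact Poisson 95% intervals, control library in blue and library labelled knockout in red; cluster 23 had no control cells. Fabp5 is higher in the library labelled knockout in each of the 5 monocyte-like clusters found in both, and Trem2 is lower there in 4 of them.

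In monocyte-like cells Fabp5 was the member that differed most. It stood at 1083 CPM (1061 to 1106) for control and 2361 CPM (2333 to 2389) in the library labelled knockout, 2.179-fold higher (2.128 to 2.232). It was 1 of 8 members at or past 2-fold in that direction, where 1.61% of 11024 genes were, and no member was 2-fold lower, as 0.136% of genes were. The libraries filled the class with different clusters: cluster 4 was the largest in the control library (337 cells, against 312), and cluster 2, led by the chemokine genes Ccl24, Ccl7 and Ccl2, in the library labelled knockout (579 cells, against 220). Cluster 2 also carried macrophage markers, and its name is a close call between the 2 classes. Cluster 7 was a close call too, with a mean log2 marker fold of 0.42 for monocytes and 0.20 for cDC2. At Leiden resolution 2 the groups led by Ccl24 and by Ear2 stayed unnamed. Fabp5 was higher in the library labelled knockout in each of the 5 clusters found in both, by 1.559-fold to 2.752-fold. It stood at 2004 and 3636 CPM in cluster 2, 2029 and 3163 CPM in cluster 4, and 363.8 and 1001 CPM in cluster 7, with H2-DMb1 and Ccr2 among its leading genes. In cluster 3, led by Hp and Chil3, it stood at 248.9 and 581.2 CPM, and in the Ace- and Treml4-expressing cells of cluster 18 at 318 and 574.1 CPM.

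Trem2 had nearly the same pooled level in monocyte-like cells, 184.1 and 178.5 CPM, with a ratio of 0.9697 (0.9078 to 1.036), while most single clusters differed. It was lower in the library labelled knockout in 4 of the 5 clusters, with counting intervals that exclude equality: 138.8 and 69.43 CPM in cluster 3, 204.7 and 112.4 CPM in cluster 4, 143.1 and 110.6 CPM in cluster 7, and 108.9 and 53.25 CPM in cluster 18. Cluster 2, the richest in Trem2, had 277.6 and 304.9 CPM and made up 220 of 1303 cells of the class for control and 579 of 1761 in the library labelled knockout. Cluster 23, 94 cells of the library labelled knockout led by Rsad2, Cxcl10 and Isg15, had 53.23 CPM of Trem2, at 1424 CPM of C1qb. The C1q chains were 1.27-fold to 1.433-fold higher in the pooled class (C1qb at 747.8 and 949.4 CPM) and higher in 4 of the 5 clusters. Clusters 3 and 18, among these 4, had little C1q. Their C1qa stood at 15.23 and 31.9 CPM and at 10.37 and 44.93 CPM, beside 6.972 and 38.32 CPM in lymphocytes. A rise in monocytes cannot be told from the lymphocyte level there. Cluster 7 went the other way, with 1240 and 978.5 CPM of C1qb. Apoe was 1.238-fold higher (1869 and 2315 CPM), and lower only in cluster 4 (1791 and 1573 CPM). Tyrobp (ratio 0.985, 0.9668 to 1.003) and Gpnmb (0.9436, 0.8589 to 1.037) had intervals that include equality. Summed macrophage markers stood at 4370 and 5478 CPM and monocyte markers at 9500 and 11120 CPM in this class, and their part was not tested.

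Because the pools differ in sex, the ratios were taken within cells that had Xist and no Y-linked UMI and within cells that had a Y-linked UMI and no Xist. In monocyte-like cells C1qb was 2.351-fold higher (2.182 to 2.537) in the library labelled knockout among Xist cells (412.3 and 969.3 CPM), and at a ratio of 0.9817 (0.9074 to 1.061) among Y-linked cells (921.4 and 904.5 CPM). C1qa and C1qc showed ratios of 2.365 and 2.596 in Xist cells and 1.284 and 1.181 in Y-linked cells. These pooled ratios mix clusters: cluster 2 made up 51 of 307 and 491 of 1381 monocyte-like Xist cells. Within cluster 2 the C1qb ratios were 1.602 in Xist and 1.297 in Y-linked cells. Within cluster 7 they were 1.289 and 0.6466. Fabp5 in monocyte-like cells was higher in both kinds, by 1.845-fold (1.771 to 1.923) and 1.122-fold (1.045 to 1.204), both below the pooled 2.179. In macrophage-like cells, Fabp5 was 1.702-fold higher in Xist cells (945.8 and 1610 CPM), and in Y-linked cells 1.13-fold higher in the control library (959.1 and 848.7 CPM). Macrophage Trem2 had ratios of 1.07 (0.9944 to 1.152) and 1.619 (1.529 to 1.714). Macrophage Apoe was 1.326-fold higher in the control library among Xist cells and had a ratio of 1.027 among Y-linked cells.

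Within cluster 1, Fabp5 had ratios of 1.66 in Xist and 0.8329 in Y-linked cells, and Tyrobp 0.8985 and 0.9991. Both kinds of cell pointed the same way there, with intervals that exclude equality, for 5 members. Apoe was lower in the library labelled knockout (ratios 0.7842 and 0.7869), and C1qa (1.247 and 1.166), C1qb (1.306 and 1.211), C1qc (1.148 and 1.174) and Trem2 (1.132 and 1.427) were higher. Cluster 13 did not share this. There the ratios were below 1 in Xist cells (C1qa 0.8529, C1qb 0.8517, C1qc 0.7726, Apoe 0.5093, Trem2 0.8007, from 45 and 97 cells) and above 1 in Y-linked cells (1.662, 1.547, 1.525, 1.611 and 1.877, from 107 and 61 cells). In cluster 3 Trem2 was lower in Xist cells (0.6078) and in Y-linked cells (0.4973). Comparisons were also taken over the monocyte-like clusters with at least 20 cells of a kind in each library. Fabp5 was higher in the library labelled knockout in 8 of 9, all 8 with intervals that exclude equality. Trem2 was lower there in 6 of 8, but only 4 of these had such intervals, as did 1 that was higher. C1qb was higher there in 6 of 7, with such intervals for 5 of these and for the 1 that was lower. C1qa was higher in 4 of 5 and C1qc in 5 of 6. Only 135 monocyte-like cells of the library labelled knockout were of the Y-linked kind, against 1381 of the Xist kind, and which mice gave them is not labelled.

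**Figure D4:**
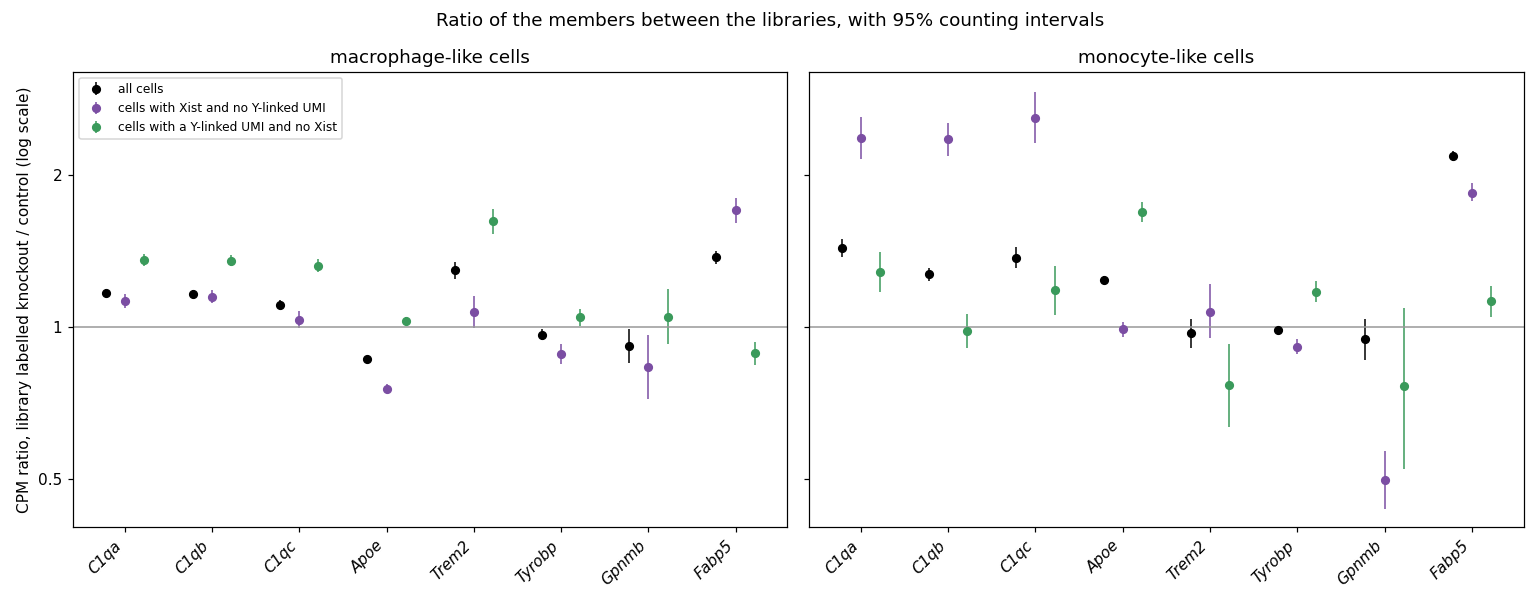
Ratio of CPM between the library labelled knockout and the control library (log scale) for each member in macrophage-like (left) and monocyte-like cells (right), over all cells (black), cells with Xist and no Y-linked UMI (purple) and cells with a Y-linked UMI and no Xist (green), with 95% counting intervals. The C1q chains in monocyte-like cells lie at 2.351 to 2.596 in Xist cells and at 0.9817 to 1.284 in Y-linked cells. Each class pools clusters, which the libraries fill in different proportions.

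Dendritic-cell-like cells (730 and 606) carried little of the members other than Tyrobp and Fabp5. Over the 4 classes together Fabp5 stood at 653.3 and 1241 CPM and Tyrobp at 1524 and 1360 CPM. The pools differ in their mix of classes, with 135 and 167 migratory cells. Within single classes Tyrobp ratios lay between 0.9699 and 1.037, with intervals that include equality. Fabp5 ratios were 1.276 in migratory and 1.589 in cDC2-like cells. They were 4.088 in cDC1-like and 1.736 (0.7909 to 3.811) in plasmacytoid cells, at 46.21 CPM or less. Lymphocytes had 44.25 and 109.8 CPM of Fabp5. In the library labelled knockout the top 1% of cDC1-like cells held 52.38% of their Fabp5 UMIs. Over the 4 classes, C1qa stood at 14.67 and 43.15 CPM, C1qb at 19.38 and 72.73, C1qc at 9.056 and 32.26, and Apoe at 62.67 and 148.1. These last 4 were at or past 2-fold higher in the library labelled knockout, as 0.928% of 10776 genes were, and none of the 8 was 2-fold lower, as 0.111% of genes were. The values are low, and in cDC2-like cells the top 1% of cells held 65% and 61.15% of the C1qa UMIs. The lymphocytes of the same libraries had 6.972 and 38.32 CPM of C1qa. The direction for the C1q chains turned under other clusterings and filters: keeping only cells with at most 5% mitochondrial UMIs, C1qb had a log2 ratio of -0.18 in place of 1.67, and it was -0.89 when the libraries were clustered separately. The summed macrophage markers in cDC2-like cells were 492.3 and 716.8 CPM; their part was not tested.

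Other genes of these pathways were read from 6 lists, 130 genes in all. Of complement genes other than C1q, 0 of 16 tested reached 2-fold in macrophage-like cells (median log2 ratio 0.07) and 1 of 15 in monocyte-like cells (0.04). That gene was Cfb, factor B of the alternative pathway, at 0.7125 CPM for control and 9.341 CPM in the library labelled knockout. C3ar1, the C3a receptor, stood at 313 and 513.6 CPM in monocyte-like cells. Of 22 TREM2-TYROBP signalling genes, 0 reached 2-fold in macrophage-like cells (median -0.05) and 1 in monocyte-like cells (-0.07), Treml2, a receptor gene of the same family, at 20.54 and 50.41 CPM.

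Lipid transport and cholesterol genes had 1 of 26 at least 2-fold higher in macrophage-like cells (median 0.09), Fabp4, a relative of Fabp5, at 37.47 and 84.59 CPM. In monocyte-like cells 2 of 27 were (median 0.11): Ch25h, cholesterol 25-hydroxylase, at 4.156 and 16.83 CPM, and Fabp3 at 0.8313 and 8.416 CPM. Cd36, a fatty acid receptor, stood at 247.5 and 143.3 CPM in monocyte-like cells, and Abcg1, a cholesterol exporter, at 57.48 and 106.7 CPM. None of 25 lysosome genes reached 2-fold in either class (medians 0.06 and 0.08), and Grn, progranulin, stood at 518.4 and 798.9 CPM in monocyte-like cells. The 17 other lipid-associated macrophage genes had medians of 0.07 and 0.23 with none at 2-fold. Among them Cd9, a tetraspanin, was at 188.8 and 125.1 CPM in macrophage-like cells and Lgals1, a galectin, at 828.3 and 1315 CPM in monocyte-like cells. None of 12 macrophage transcription factors reached 2-fold (medians -0.07 and -0.05). Klf4 was lower in the library labelled knockout in both classes, at 94.14 and 52.18 CPM and at 252.9 and 152 CPM, and Maf stood at 881.2 and 786.1 CPM and at 626 and 902.4 CPM. No gene of the 6 lists was at least 2-fold lower in either class.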

How the data were processed

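The libraries were made with the 10x Genomics Chromium 3′ v3 chemistry, and each was aimed at 8000 cells, per the labels' protocols. The authors deposited unnormalized UMI counts from Cell Ranger 3.0.1 on mm10, per the submitters' processing notes. The lowest total per barcode was 500 UMIs. Analyses used scipy 1.17.1, scikit-learn 1.9.0, scanpy 1.11.5 and leidenalg 0.10.2 under Python 3.11.15. Cells needed 200 or more genes and no more than 10% mitochondrial UMIs, and the highest Scrublet scores were removed at 0.8% per 1000 barcodes (481 and 294 barcodes). Both libraries were clustered together (2000 variable genes, 30 principal components, 15 neighbours, Leiden resolution 1) without the members, interferon-stimulated genes, Usp18, Lyz2 or sex-linked genes. A cluster took the class with the highest mean log2 marker fold among those with at least 3 markers detected, unless another class had more markers among its 10 leading genes; that order of steps was changed after the data were seen. For a cluster whose median UMI count lay under its library's median divided by 3, a leading gene had to be a marker too. Names mean "like", and 2 clusters stayed unnamed. CPM values are from UMIs summed over each class of a library. Ratios use log2(CPM + 5) for medians and 2-fold limits over genes with at least 20 UMIs in both libraries together, and the method was tested on simulated counts. The text names the 8 members, genes past 2-fold or with the widest ratios of each list, and the 3 nearest genes of each member among those with at least 500 UMIs. The members and lists were chosen with earlier results of these data known. Selenop is listed under its older symbol, and Clec7a was not used here. Of 27998 gene identifiers, 27645 (98.7%) matched GENCODE M21 (GRCm38), which gave positions. Alternatives changed the pseudocount, filters, doublet calls, clustering, gating, weighting and sex of the cells.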

Additional observations from a re-analysis of the deposited data

Results flagged for a closer look

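The tumor cells that passed the CD45 sort lie outside the comparison of myeloid cells, yet they carried some members at a level near or above that of macrophages. Gpnmb in melanoma-like cells stood at 1578 CPM for control and 1664 CPM in the library labelled knockout, against 166.8 and 152.8 CPM in macrophage-like cells and 4.411 and 6.123 CPM in lymphocytes. Fabp5 in melanoma-like cells of the control library stood at 1026 CPM, against 984.3 CPM in macrophage-like cells and 44.25 CPM in lymphocytes. In the library labelled knockout it was lower than in macrophage-like cells, 1259 CPM (1236 to 1281) against 1351 CPM (1329 to 1373).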

How the results depend on the processing

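No paired analysis was possible because each group is 1 library, and for the same reason no replicate could be left out. Alternatives that leave out the shallow cluster, move chemokine-rich cluster 2, average clusters or drop migratory dendritic cells were chosen after seeing the data. The cause of each shift below was not tested, beyond what a setting changes by its own construction. The median log2 ratio of the 8 members in macrophage-like cells (0.181) stayed above 0 throughout. It was 0.369 with a mitochondrial limit of 5%, 0.06 and 0.115 at Leiden resolutions 2 and 0.5, 0.062 with libraries clustered separately, 0.263 with a per-cell marker gate, 0.006 as a mean over single cells, 0.071 in Xist cells, 0.233 in Y-linked cells, 0.105 without cycling clusters and 0.066 with cluster 2 added. In monocyte-like cells (0.325) it also stayed above 0: 0.471 at 5% mitochondrial UMIs, 0.658 and 0.471 at resolutions 2 and 0.5, 1.148 with separate clustering, 0.162 with members among the clustering genes, 0.677 with the gate, 0.489 in Xist and 0.198 in Y-linked cells, 0.106 as a mean over clusters and 0.03 without cluster 2.

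In dendritic-cell-like cells (1.05) the median changed sign: -0.066 at 5% mitochondrial UMIs, -0.223 and -0.317 at resolutions 2 and 0.5, -0.274 with separate clustering and -0.004 with the gate. It was 0.856 with a pseudocount of 20, 1.235 with at least 100 UMIs, 0.256 with doublets kept, 0.785 with members clustered on, 0.921 over single cells, 0.897 after subtracting the B-cell level, 0.586 and 0.231 in Xist and Y-linked cells, 0.767 over clusters and 0.847 without migratory cells. Single members there changed sign too. C1qa (1.291), C1qb (1.673), C1qc (1.406) and Trem2 (0.487) were -0.098, -0.178, -0.072 and -0.398 at 5% mitochondrial UMIs, -0.311, -0.607, -0.459 and -0.278 at resolution 2, -0.505, -0.7, -0.653 and -0.471 at resolution 0.5, and -0.871, -0.891, -0.75 and -0.4 with separate clustering. With the gate C1qa, C1qb, C1qc and Gpnmb were -0.094, -0.151, -0.004 and -0.003, Apoe was -0.078 with doublets kept, and C1qb -0.391 in Y-linked cells.

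In macrophage-like cells Apoe (-0.215) and Gpnmb (-0.123) were 0.025 and 0.192 at 5% mitochondrial UMIs, and C1qc (0.146) was -0.033 over single cells. In Y-linked cells Apoe, Tyrobp, Gpnmb and Fabp5 were 0.038, 0.061, 0.065 and -0.175, against -0.215, -0.052, -0.123 and 0.455. In monocyte-like cells Apoe (0.308) was -0.017 in Xist cells and C1qb (0.342) was -0.026 in Y-linked cells. Gpnmb there (-0.079) ranged from -0.969 to 1.966 over 17 alternatives, of which 15 kept its sign. Trem2 (-0.043) ranged from -0.793 to 0.096, with 15 of 17 of the same sign. Tyrobp (-0.022) ranged from -0.204 to 0.231, with 9 of 17. Without thinning, the share of macrophage-like cells with an Apoe or Trem2 UMI differed by -0.18 and -11.65 percentage points in place of 4.7 and 10.76. The shares for C1qa, C1qb, C1qc and Fabp5 likewise differed by -5.01, -5.5, -6.12 and -2.56 points in place of 2.65, 3.5, 2.69 and 5.24, whose intervals include 0. Of 451 alternative values for 40 single results, 210 stayed within counting error, 208 moved further and 33 reversed.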
